A study of Mus musculus with 2 samples.

Results

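The 32 genes described here are 21 fibroblast growth factor (FGF) ligand symbols (Fgf1 to Fgf18, Fgf20, Fgf21 and Fgf22), the 5 receptor genes Fgfr1 to Fgfr4 and Fgfrl1, and 6 genes that FGF signalling is known to switch on, Spry1, Spry2, Spry4, Dusp6, Etv4 and Etv5. They were taken by symbol from the 27998 genes of the count matrices, and all 32 were found. The matrices hold single-cell RNA sequencing of wild type C57BL/6 mouse embryos. The somites between the limb buds were dissected at embryonic day 9.5 (E9.5) and 11.5 (E11.5), and 3 embryos were pooled into 1 library at each stage. With 1 library per stage, cells are not replicates, so no test was possible: every interval below is a 95% interval for counting error only and holds no difference between embryos.

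FGFs are secreted proteins that bind receptor tyrosine kinases with the help of heparan sulfate and act mostly through the Ras and ERK kinase cascade. ERK activity raises transcription of the ETS factors Etv4 and Etv5 and of inhibitors that dampen the same cascade, the Sprouty genes and the ERK phosphatase Dusp6, so these genes are widely read as a sign that a cell receives the signal. In the trunk of the embryo FGFs are known for setting the pace of somite formation, for keeping muscle progenitors growing, and for instructing the tendon progenitors that form beside the myotome, the muscle layer of the somite.

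After cells with fewer than 200 genes, with 6500 genes or more, or with at least 15% mitochondrial UMIs were left out, 9851 of 10121 E9.5 barcodes and 9595 of 10167 E11.5 barcodes remained, with medians of 12462 and 12479 UMIs (unique molecular identifiers, counted RNA molecules). The libraries shared 25 barcodes among these cells. Cells were placed in classes by known marker genes, none of which is among the 32 genes. Cells that met no gate (2624 and 2992) or more than 1 gate (632 and 445) were left out of the classes. The groups by Scx count given further below also held cells that met no gate. A level is the number of UMIs of a gene per 1000000 UMIs of the class (UPM). At E9.5, 18 of the 32 genes had at least 100 UMIs over all cells, 5 had 30 to 99 and 9 had fewer than 30, with Fgf22 at 0. At E11.5 these counts were 23, 3 and 6. Red blood cells, which should lack most of these transcripts, had 1.19 UPM at E9.5 and 0.461 UPM at E11.5 for the sum of the 17 secreted ligands. For the 6 feedback genes this background was 8.35 and 3.23 UPM.

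The muscle classes are given in the known order of differentiation and rest on the presence or absence of marker UMIs. Pax3/Pax7 cells carried Pax3 or Pax7 and at least 4 dermomyotome markers without Myf5, Myod1 or Myog. Myf5 cells carried Myf5 without Myod1 or Myog, Myod1 myoblasts carried Myod1 without Myog, and early myocytes carried at least 2 Myog UMIs with fewer than 6 of 12 sarcomere markers. Sarcomere-building myocytes carried Myog and at least 6 of those markers, whose summed level was 37134 UPM in them and 35.6 UPM in Pax3/Pax7 cells. The E11.5 Pax3/Pax7 gate did not hold muscle progenitors alone. Only 51 of its 204 cells fell in muscle clusters when the same library was clustered without the 32 genes, and the other 153 had 332 UPM of Prrx1 and 162 UPM of En1, which mark mesenchyme and dermis, against 112 and 39.9 UPM in the 51. At E9.5, 562 of 733 Pax3/Pax7 cells fell in muscle clusters. The main values of the 32 genes in E11.5 Pax3/Pax7 cells are therefore given below for the whole gate and for the 51 cells. Those of a wider gene list are given for the whole gate only. Clustering also did not fully separate the next 3 classes. One E11.5 muscle cluster held 34 Myf5 cells, 35 Myod1 myoblasts and 48 early myocytes. Another held 72 early myocytes and none of the other 2 classes.

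At E11.5, Fgf1, Fgf2, Fgf11 and 4 further ligands had their highest class level in sarcomere-building myocytes. Fgf1 and Fgf2 were low there, at 1.4 and 4.04 UPM, and Fgf11, at 16.5 UPM, is given further below. The 4 others are described first. These were Fgf4 and Fgf9, which act broadly in early embryos, Fgf6, a ligand known for its expression in the myogenic lineage, and Fgf7, a ligand best known from mesenchyme that signals to epithelium. To show what lies in front of these 4 genes, the 250 bases before the start of each are printed from RefSeq (build GRCm38.p6, plus strand, 5′ to 3′). They lie at chr7:144861136-144861385 (Fgf4), chr6:127015292-127015541 (Fgf6), chr2:126034408-126034657 (Fgf7) and chr14:58072436-58072685 (Fgf9). None of the windows overlaps an exon of the GENCODE annotation. The windows of Fgf4 and Fgf9 lie in an intron of a longer transcript of the same gene, that of Fgf7 lies in an intron of Fam227b on the opposite strand, and that of Fgf6 lies in no gene. Capitals mark the E-boxes searched, forms of the site that muscle and mesenchymal basic helix-loop-helix factors can bind. One is CAGCTG, which reads the same on both strands, and the other is CAGGTG, which is read as CACCTG on the opposite strand.
Fgf4: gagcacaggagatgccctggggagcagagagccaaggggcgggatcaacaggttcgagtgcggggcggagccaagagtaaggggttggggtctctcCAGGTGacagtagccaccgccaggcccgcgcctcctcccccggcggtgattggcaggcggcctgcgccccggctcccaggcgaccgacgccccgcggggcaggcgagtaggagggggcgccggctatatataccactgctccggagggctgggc
Fgf6: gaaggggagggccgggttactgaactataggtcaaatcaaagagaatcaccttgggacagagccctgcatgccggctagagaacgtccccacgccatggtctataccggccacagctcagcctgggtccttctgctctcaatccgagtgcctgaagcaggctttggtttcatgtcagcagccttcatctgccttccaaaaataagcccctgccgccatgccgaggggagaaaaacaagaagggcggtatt
Fgf7: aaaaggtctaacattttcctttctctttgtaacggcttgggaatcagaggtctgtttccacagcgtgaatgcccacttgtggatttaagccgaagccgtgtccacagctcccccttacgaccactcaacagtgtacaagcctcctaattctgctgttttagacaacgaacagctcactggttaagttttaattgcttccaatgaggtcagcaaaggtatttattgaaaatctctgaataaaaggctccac
Fgf9: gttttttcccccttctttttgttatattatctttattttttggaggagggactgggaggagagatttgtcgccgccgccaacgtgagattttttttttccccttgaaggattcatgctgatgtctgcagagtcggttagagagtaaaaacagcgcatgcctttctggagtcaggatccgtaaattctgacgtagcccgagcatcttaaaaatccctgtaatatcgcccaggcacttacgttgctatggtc

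The only match in the 4 windows on either strand was a CAGGTG in front of Fgf4, whose first base is 154 bases before the start. Of 32851 promoter windows of this length, 13.0% held the first form, 17.2% the second on either strand and 27.7% held any of them, as did 7 of the 23 members with a promoter entry. A match is a run of letters and no measured binding site.

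Fgf6 had 278 UMIs in the 326 sarcomere-building myocytes, a level of 48.8 UPM (43.3 to 54.9), and this was 92.4% of its UMIs in the whole library. Fgf4 had 68 UMIs there, 11.9 UPM (9.27 to 15.1) and 90.7% of its total. Fgf7 stood at 40.9 UPM (35.8 to 46.5), with 58.5% of its UMIs in this class. In the 4 earlier muscle classes Fgf4 was at 0 UMIs and Fgf6 and Fgf7 stood between 0 and 1.43 UPM. Among the muscle classes these 3 ligands were thus high only in the last, for which they were chosen. They were not high in all parts of it, as given below. Fgf9 had another course. It was already at 36.7 UPM in Myf5 cells, 31.9 in Myod1 myoblasts and 34.7 in early myocytes, levels whose intervals overlap, and stood at 94.3 UPM (86.5 to 103) in sarcomere-building myocytes.

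Fgf5, a ligand studied in hair follicles and early embryos, and Fgf10, the mesenchymal ligand of limb and lung buds, ran the other way between classes. Fgf5 stood at 56.3 UPM (49.0 to 64.4) in Myf5 cells, 44.2 in Myod1 myoblasts, 30.5 in early myocytes and 16.3 in sarcomere-building myocytes. The intervals of Myf5 cells and Myod1 myoblasts overlap, and those of the later steps do not. Fgf10 went from 20.5 UPM (16.1 to 25.6) in Myf5 cells through 15.7 and 11.9 to 8.43 UPM, where the intervals of neighbouring steps overlap and those of the first and the last do not. In the whole Pax3/Pax7 gate Fgf5, Fgf9 and Fgf10 were at 24.5, 16.6 and 6.44 UPM. In its 51 cells of the muscle clusters they were at 86.3, 60.5 and 21.9 UPM, against 5.23, 2.82 and 1.61 UPM in the other 153. The gate as a whole thus lay below its part in muscle clusters. Of these 51 cells, 12 fell in a cluster where 52.3% of all cells were predicted doublets.

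**Figure D1:**
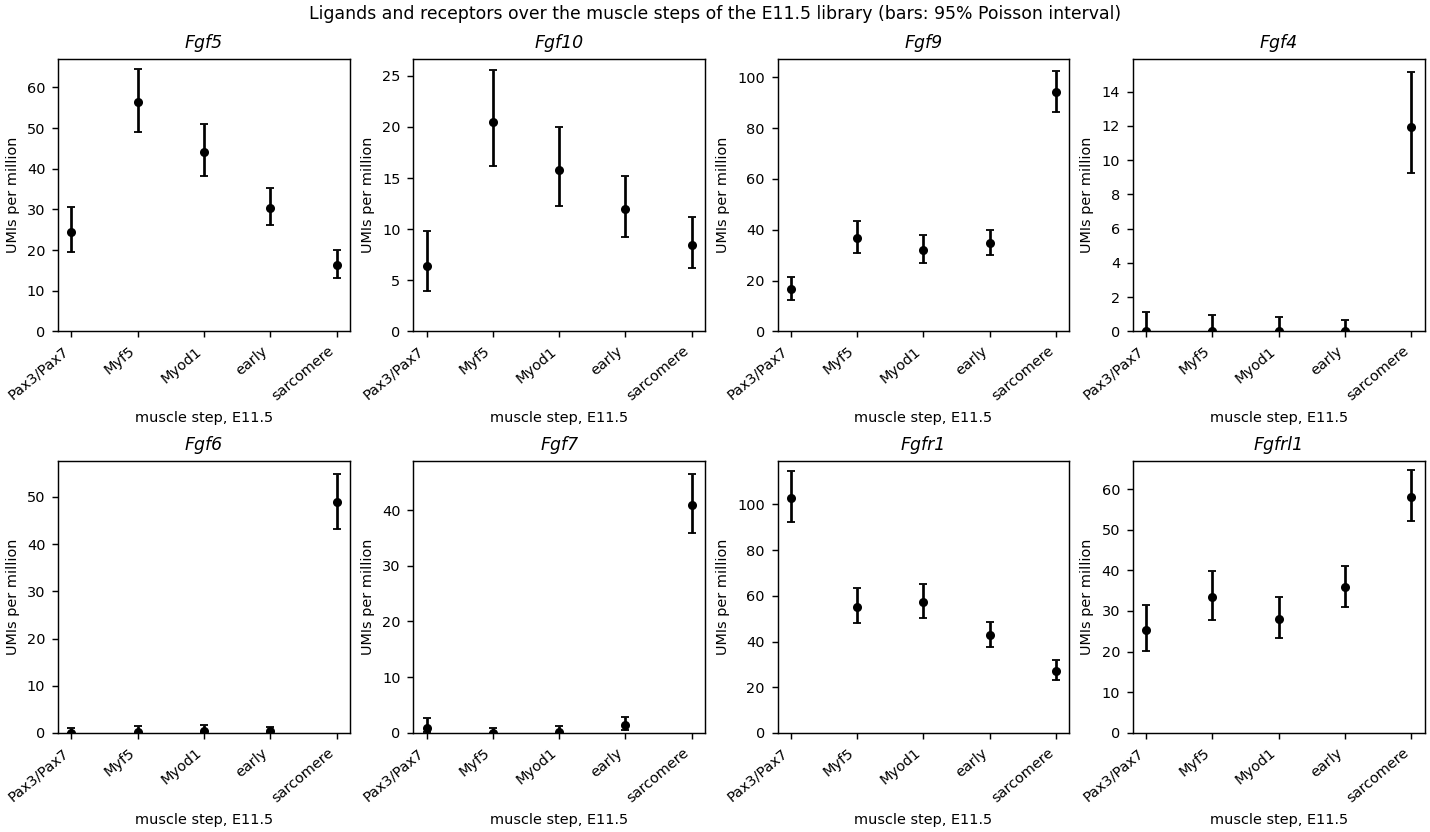
Levels of 6 ligands and 2 receptors (UMIs per 1000000 UMIs, vertical axes from 0) over 5 muscle classes of the E11.5 library (horizontal axes, from Pax3/Pax7 cells to sarcomere-building myocytes). Points are class levels and bars 95% Poisson intervals. Fgf4, Fgf6 and Fgf7 sit near 0 until the last class, at 11.9, 48.8 and 40.9 UPM, while Fgf5 goes from 56.3 to 16.3 UPM after Myf5 cells and Fgfr1 from 103 to 27.2 UPM over all 5. The first point is the whole Pax3/Pax7 gate, of which 153 of 204 cells lay outside muscle clusters. The 51 cells inside had 86.3 UPM of Fgf5, 60.5 of Fgf9, 21.9 of Fgf10 and 74.7 of Fgfr1.

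The ligands did not appear together at the entry to the last class. Among sarcomere-building myocytes with 6 to 8 sarcomere markers (116 cells) Fgf9 stood at 28.9 UPM, Fgf7 at 7.84 UPM, and Fgf6 and Fgf4 had no UMI, with an upper limit of 2.22 UPM for each. With 9 or 10 markers (81 cells) the levels were 51.2, 17.3, 7.87 and 0.787 UPM in the same order. With 11 or 12 markers (129 cells) they were 153, 71.6, 96.9 and 24.2 UPM. Fgf9 and Fgf7 were thus measurable where Fgf6 and Fgf4 were not, although the cells also became deeper, with median UMI counts of 13390.5, 15506 and 19342. Fgf5 was 21.1, 25.2 and 9.40 UPM in these groups. Fgf10 was 6.03, 3.94 and 11.9 UPM (8.21 to 16.8), so its fall between classes did not go on within the last class. The intervals of these 3 Fgf10 levels overlap. The muscle cluster led by Myh7 and Trdn, genes of slow myosin and the calcium store (123 cells), had 98.7 UPM of Fgf6, 73.1 of Fgf7, 149 of Fgf9 and 27.1 of Fgf4. For Fgf9 alone, a cluster of 125 less differentiated cells led by Msc and Pax3 was as high as sarcomere-building myocytes, at 101 UPM (86.9 to 116). Of the 326 sarcomere-building myocytes, 123 (37.7%) held UMIs of at least 2 of these 4 ligands and 28 held all 4. In every other class at most 1.01% of cells held 2 or more. These 4 ligands were chosen for their high level in sarcomere-building myocytes, so this contrast follows in part from that choice. Scrublet, which predicts doublets, marked 7.98% of the sarcomere-building myocytes and 3.75% of all E11.5 cells.

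Outside the muscle classes, the E11.5 sum over the 17 secreted ligands was highest in neural tube progenitors, at 50.2 UPM. Neurons, intermediate mesoderm (21 cells) and lateral plate mesenchyme followed at 34.4, 33.7 and 21.1 UPM. Fgf7 had its second highest class level in lateral plate mesenchyme, at 4.30 UPM. Fgf15, the mouse FGF of the neural tube and gut, stood at 47.3 UPM (37.5 to 58.7) in neural tube progenitors and 4.57 UPM in neurons, and 54.7% of its UMIs came from the former class. Fgf20 had 17 of its 19 UMIs in surface ectoderm and other epithelium, in 4 of 103 cells with Trp63, Krt5, Krt14 or Grhl3, markers of epidermis. Fgf18, a ligand of skeletal and neural tissue, was highest in neurons at 14.2 UPM (10.7 to 18.6) and lay between 1.86 and 4.52 UPM in cartilage, tendon, sclerotome, lateral plate and dermal classes. Fgf9 also had 11.8 UPM in neurons. Fgf8 was low in every E11.5 class, at most 4.17 UPM in Myod1 myoblasts and 3.46 UPM in tendon progenitors. Tendon progenitors, sclerotome and cartilage precursors were poor in ligands, with sums over 17 secreted ligands of 13.6, 11.3 and 7.21 UPM. The same sum was 229 UPM (217 to 242) in sarcomere-building myocytes and 119 UPM in Myf5 cells.

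The 4 FGF homologous factors Fgf11 to Fgf14 stay inside the cell, where they modulate sodium channels. Fgf13 was at 101 UPM (90.9 to 112) in neurons of E11.5, where those of E9.5 had 13.5 UPM. Its second E11.5 class was sarcomere-building myocytes at 30.6 UPM, where cells with 11 or 12 sarcomere markers had 55.0 UPM and cells with 6 to 8 had 6.63 UPM. Fgf11 was highest in the same myocytes, at 16.5 UPM (13.3 to 20.2). Fgf12 was at 12.4 UPM in neurons and 8.76 UPM in Myf5 cells, with intervals that overlap. Fgf14 had 51 UMIs in all, and reached 4.84 UPM in neurons.

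At E9.5 the ligands of the muscle steps were others. Fgf18 stood at 145 UPM (128 to 164) in newly formed somite cells, named by segmentation genes such as Tbx6, Mesp2 and Ripply2. It lay at 24.5 UPM in Pax3/Pax7 cells, 24.6 in Myf5 cells, 23.3 in sclerotome and 21.7 in cartilage precursors, levels that do not differ beyond their intervals. Of the 96 E9.5 cartilage precursors, 50 fell in 1 cluster named for sclerotome, and only 2 also met a gate with 1 more marker. After each cell was thinned to 5000 UMIs, 46.2% of newly formed somite cells (36.3 to 56.2) had an Fgf18 UMI, against 10.4% of Pax3/Pax7 cells. Fgf8, the ligand of the tail bud, limb ridge and early myotome, was at 40.2 UPM (35.8 to 45.1) in Myf5 cells, 39.1 in 26 early myocytes and 22.0 (19.4 to 24.7) in Pax3/Pax7 cells. Its highest class was intermediate mesoderm, the kidney-forming tissue, at 55.5 UPM (45.6 to 66.9), and epithelium had 36.2 UPM. The intervals of Myf5 cells, early myocytes and epithelium overlap. Fgf8 was thus higher in Myf5 than in Pax3/Pax7 cells beyond counting error.

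Intermediate mesoderm also led for Fgf9, at 50.0 UPM (40.6 to 60.9) with 36.7% of its 158 cells holding a UMI. Lateral plate mesenchyme led for Fgf10 at 18.9 UPM (16.1 to 22.0) and followed for Fgf9 after epithelium, at 10.5 UPM. Fgf15 was at 35.1 UPM (32.8 to 37.4) in neural tube progenitors, with 71.9% of its UMIs. Fgf3, a ligand of hindbrain and tail, was at 10.9 UPM in epithelium, 5.14 in newly formed somite cells and 4.14 in neural tube progenitors, levels whose intervals overlap except between the first and the last. In epithelium 19 of its 21 UMIs lay in 10 of the 71 cells without epidermal markers. Fgf3, Fgf4 and Fgf15 are neighbours on chromosome 7, between 144838083 and 144900953 (GRCm38), yet their leading classes were epithelium at E9.5, sarcomere-building myocytes at E11.5 and neural tube at both stages. Fgf4, Fgf6 and Fgf7, the late muscle ligands, had 21, 25 and 10 UMIs in the whole E9.5 library. The E9.5 muscle cluster led by Myog held 19 of the 25 Fgf6 UMIs. Only 8 E9.5 cells met the sarcomere gate, too few for a level. The lowest ligands were Fgf1, Fgf2, Fgf16, Fgf17, Fgf21 and Fgf22, none with more than 51 UMIs in the E9.5 or 139 in the E11.5 library, and no class level above 4.04 UPM. In the same annotation Fgf8 (ENSMUSG00000025219) lies at chr19:45736798-45742915, Fgf18 (ENSMUSG00000057967) at chr11:33117430-33147400 and Fgf5 (ENSMUSG00000029337) at chr5:98254184-98277030.

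**Figure D2:**
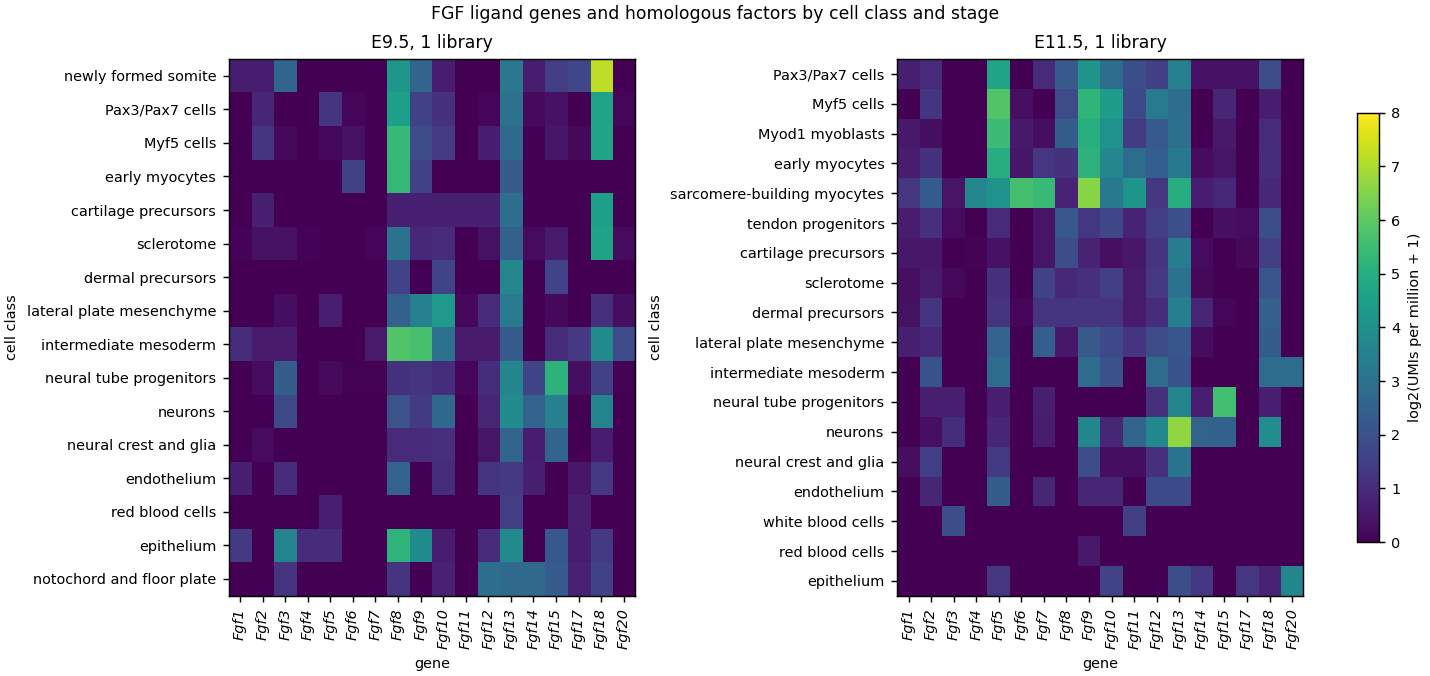
Levels of 18 ligand genes (columns) in each cell class (rows) of the E9.5 and E11.5 library, as log2 of UMIs per 1000000 plus 1 (colour, same scale in both panels). Colours should be compared down a column, between classes. At E9.5 Fgf18 is brightest in newly formed somite cells and Fgf8 in intermediate mesoderm and Myf5 cells, and at E11.5 Fgf4, Fgf6, Fgf7 and Fgf9 are brightest in sarcomere-building myocytes.

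Within the neural tube, Fgf15 differed between dorsal and ventral cells. At E9.5 it was at 60.2 UPM (55.1 to 65.7) in 564 progenitors with the dorsal genes Msx3 or Olig3 and at 15.1 UPM (12.9 to 17.7) in 815 with the ventral genes Olig2 or Nkx6-1. Fgf3 had the same order, at 5.77 and 1.36 UPM. Fgfr3, a receptor of neural progenitors and cartilage, had the opposite one, at 15.1 UPM dorsally and 27.9 UPM ventrally. At E11.5 Fgf15 and Fgfr3 kept their order, with Fgf15 at 96.2 UPM in 64 dorsal cells and 14.1 UPM in 24 ventral cells, and Fgfr3 at 62.5 and 183 UPM.

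The receptors were spread more widely than the ligands. Fgfr1, the main receptor of mesoderm, was measured in every class except blood at more than 20 UPM. At E9.5 it was highest in newly formed somite cells at 139 UPM (122 to 158) and intermediate mesoderm at 101 UPM, and lay between 46.6 and 60.2 UPM in the other mesenchymal and muscle classes apart from early myocytes, which had 29.3 UPM. At E11.5 it stood between 89.7 and 109 UPM in sclerotome, cartilage, tendon, dermal and lateral plate classes, whose intervals largely overlap. Over the muscle steps it went from 103 UPM in Pax3/Pax7 cells through 55.2, 57.4 and 42.8 to 27.2 UPM (23.1 to 31.9) in sarcomere-building myocytes. In the 51 Pax3/Pax7 cells of muscle clusters it was 74.7 UPM. Among sarcomere-building myocytes it was 50.7, 29.1 and 12.3 UPM at 6 to 8, 9 or 10 and 11 or 12 markers, the opposite course to Fgf6 and Fgf9.

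Fgfr2, the receptor of epithelia and cartilage, was at 222 UPM (198 to 247) in E11.5 epithelium and 78.1 UPM in E9.5 epithelium. The make-up of this class differed, as 103 of 105 cells carried an epidermal marker at E11.5 and 67 of 138 at E9.5, where Fgfr2 was at 110 UPM in those cells and 42.7 UPM in the rest. Neural tube progenitors and cartilage precursors followed at E11.5 with 63.6 and 63.3 UPM. The muscle classes and tendon progenitors lay between 1.60 and 6.44 UPM. Fgfr3 was at 113 UPM (97.3 to 130) in E11.5 neural tube progenitors, and its next classes, epithelium and cartilage precursors, had 9.73 and 8.70 UPM. At E9.5 it was at 39.0 UPM in notochord and floor plate and 20.6 UPM in neural tube progenitors. Fgfr4, the receptor best known from muscle and liver, was concentrated in early myocytes at 23.2 UPM (19.4 to 27.5), with 44.4% of its UMIs. Myf5 cells, Myod1 myoblasts and sarcomere-building myocytes had 7.97, 6.02 and 7.38 UPM with overlapping intervals. Among sarcomere-building myocytes Fgfr4 was 10.9, 11.8 and 3.25 UPM at 6 to 8, 9 or 10 and 11 or 12 markers. At E9.5 it had 32 UMIs in all. Fgfrl1, a receptor without a kinase domain, was highest in cartilage precursors at 76.6 UPM (72.4 to 81.0) and in sarcomere-building myocytes at 58.1 UPM (52.0 to 64.7), and among the latter it went from 38.0 to 74.5 UPM with the number of sarcomere markers. Endothelium had 38.0 UPM of Fgfr1 and under 5 UPM of Fgfr2 at E11.5.

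**Figure D3:**
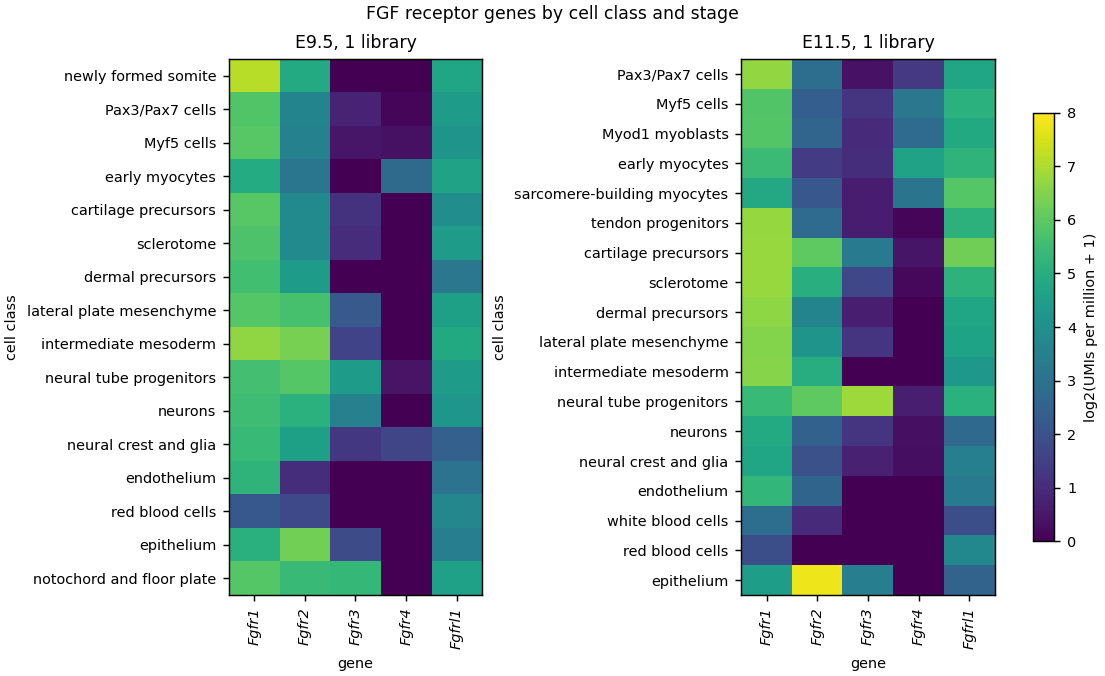
Levels of the 5 receptor genes (columns) in each cell class (rows) of the E9.5 and E11.5 library, as log2 of UMIs per 1000000 plus 1 (colour). Fgfr1 is seen in nearly all rows, Fgfr2 is brightest in E11.5 epithelium at 222 UPM, Fgfr3 in E11.5 neural tube progenitors at 113 UPM, and Fgfr4 in E11.5 early myocytes at 23.2 UPM.

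At E11.5 the class with the highest sum of feedback genes was not the class with most ligand. As ERK activity raises these genes, their level alone does not name the signal behind it, which was not tested. Endothelium, second at E11.5, had an Fgfr1 to Fgfr4 sum of only 42.9 UPM (32.1 to 56.3). Summed over the 6 genes, the E11.5 level was 423 UPM (411 to 435) in tendon progenitors, 272 (243 to 303) in endothelium, 209 in Pax3/Pax7 cells and 174 in Myf5 cells. In the 51 Pax3/Pax7 cells of muscle clusters it was 125 UPM (101 to 152), while the other 153 had 235 UPM (216 to 255). Sarcomere-building myocytes, first for ligands, had 118 UPM (110 to 128), below the sum of every class except neurons, neural tube progenitors and red blood cells, although its interval overlaps those of sclerotome, epithelium, cartilage precursors, lateral plate, intermediate mesoderm and white blood cells. Tendon progenitors were defined by at least 4 UMIs of Scx, the transcription factor of tendon, and 814 cells met this at E11.5 and none at E9.5. Tnmd, a gene of more mature tendon, was near background among cells grouped by Scx, at most 1.69 UPM. In these tendon progenitors Dusp6 was at 142 UPM (135 to 149), Spry2 at 99.4, Spry1 at 86.7, Etv4 at 48.3, Etv5 at 28.1 and Spry4 at 18.4 UPM. Dusp6 (ENSMUSG00000019960) lies at chr10:99263231-99267489 and Etv4 (ENSMUSG00000017724) at chr11:101769742-101785371 of GRCm38. After thinning, 47.2% of them (43.7 to 50.7) had a Dusp6 UMI, against 18.2% of sclerotome cells. Dusp6 and Spry4 were as high or higher in endothelium, at 152 UPM (131 to 176) and 28.9 UPM (20.1 to 40.2).

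At E9.5 the feedback sum was highest in intermediate mesoderm at 278 UPM (255 to 302) and epithelium at 270 UPM (247 to 294), whose intervals overlap. Etv4 was at 68.7 UPM in intermediate mesoderm and 22.8 UPM in epithelium, and no other class passed 11 UPM. Spry1 was at 83.8 and 79.1 UPM in these classes and at most 22.0 UPM elsewhere. These were also 2 of the 3 classes with the highest ligand sums, 133 and 73.4 UPM, while newly formed somite cells had the highest ligand sum, 179 UPM, and a feedback sum of 162 UPM. Dusp6 was at 113 UPM (86.0 to 146) in the 26 early myocytes, 81.1 in newly formed somite cells and 80.4 in endothelium. Neural tube progenitors had the third lowest feedback sum at E9.5, 26.9 UPM (24.9 to 28.9), beside an Fgfr1 to Fgfr4 sum of 126 UPM and a ligand sum of 45.4 UPM. Their feedback sum at E11.5 was 53.1 UPM.

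**Figure D4:**
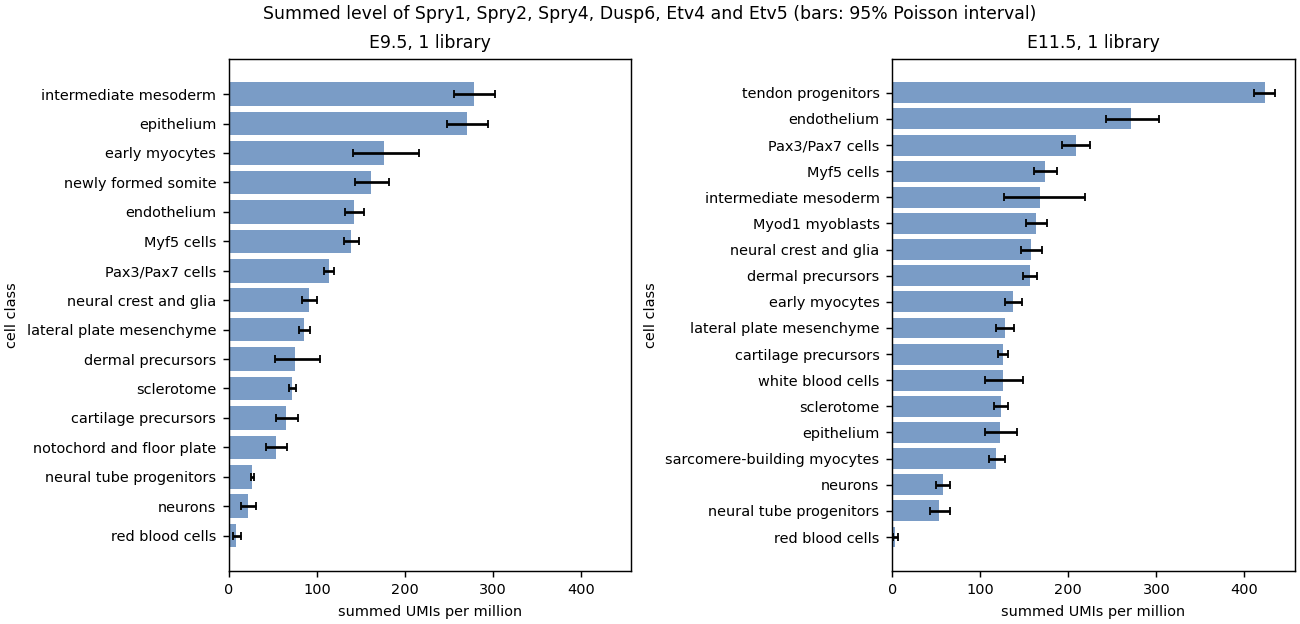
Summed level of Spry1, Spry2, Spry4, Dusp6, Etv4 and Etv5 (horizontal axes, UMIs per 1000000 from 0) in each cell class of the 2 libraries, ordered by level. Bars are class levels and lines 95% Poisson intervals. Intermediate mesoderm and epithelium lead at E9.5 with 278 and 270 UPM, and tendon progenitors lead at E11.5 with 423 UPM.

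For the 6 comparisons below, a gene counted as measured from 30 UMIs in both classes together, and as higher or lower from 2-fold. The share of all measured genes that passed the same line is given as background. In the first comparison, sarcomere-building myocytes over Pax3/Pax7 cells at E11.5, 18 of the 32 genes were measured. Of these 8 were higher, where 11.6% of 10456 genes were, and 4 were lower, where 16.8% were. The median log2 ratio was 0.04 over the 18 and -0.25 over all measured genes. Under median-of-ratios scaling, which moved the centre of all genes by 0.30 (log2), the background became 14.7% higher and 11.5% lower.

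Higher in sarcomere-building myocytes were Fgf6 (278 against 0 UMIs, at least 53.1-fold), Fgf4 (68 against 0, at least 13.0-fold), Fgf7 (log2 ratio 5.48, interval 3.91 to 7.76), Fgf11 (2.58), Fgf9 (2.51, 2.11 to 2.94), Fgfr4 (2.27), Fgf13 (1.60) and Fgfrl1 (1.19, 0.84 to 1.56). The bounds set 3 UMIs in place of 0 over the class. Lower were Etv4 (log2 ratio -3.00, -3.85 to -2.23), Etv5 (-2.20), Fgfr1 (-1.92, -2.20 to -1.64) and Dusp6 (-1.42, -1.82 to -1.03). The higher genes were thus 3 kinds of gene, secreted ligands, homologous factors and 2 receptors, and the lower ones Fgfr1 and feedback genes, while Spry1, Spry2 and Spry4 lay within 2-fold at -0.45, -0.36 and -0.32. With only the 51 Pax3/Pax7 cells of muscle clusters as reference, an alternative added after the data were seen, 15 were measured, and 7 were higher and 3 lower, where 13.4% and 13.2% of 9602 genes were. Dusp6 then stood at 0.31, the other direction, and Fgf9 at 0.64, within 2-fold. Lower were Fgfr1 (-1.46), Fgf5 (-2.40) and Fgf10 (-1.38), Spry4 became higher (1.39 on 77 against 4 UMIs), and Etv4 and Etv5 were under 30 UMIs. Fgfr4 lay within 2-fold, at 7.38 against 5.15 UPM. With Myf5 cells and Myod1 myoblasts as reference, neither Fgfr4 nor Fgfrl1 was higher. Among the feedback genes Spry4 was then higher, Spry1, Etv4 and Etv5 were lower, and Dusp6 was not lower. Of 11112 genes 10.8% were higher and 14.9% lower with this reference.

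The second comparison set tendon progenitors over sclerotome at E11.5, and 14 of the 32 genes were measured. Of the tendon progenitors, 190 fell in a cluster led by Tbx5 that also held 58 lateral plate cells. A further 210 fell in a cluster led by Gsc with 46 lateral plate cells, and Pitx1 was among the leading genes of both. Tendon progenitors and sclerotome may therefore also differ in tissue of origin, which was not tested. All 6 feedback genes and Fgf8 were higher, 7 of 14 against 2.71% of 11556 genes, and Fgfr2 and Fgf13 were lower, 2 of 14 against 3.68%. The median log2 ratio was 0.81 over the 14 and -0.05 over all genes. The log2 ratios were 2.72 for Spry4 (2.08 to 3.42), 2.50 for Spry1 (2.22 to 2.78), 2.05 for Etv4 (1.73 to 2.38), 1.68 for Dusp6 (1.51 to 1.85), 1.40 for Spry2 (1.21 to 1.59) and 1.28 for Etv5 (0.94 to 1.64). Fgf8 rested on 40 against 7 UMIs, a log2 ratio of 1.96 (0.79 to 3.37). The receptor side did not follow: Fgfr1 had a log2 ratio of -0.03 (-0.16 to 0.10), Fgfrl1 of -0.02, and Fgfr2 of -2.42 (-2.83 to -2.03). Endothelial markers, whose own class was high in Dusp6 and Spry4, summed to 33.9 UPM in tendon progenitors and 24.8 UPM in sclerotome, with 2 and 1 of 10 markers at 0. Cells that also met the endothelial gate were in neither class. Fos, Egr1 and Ier2, genes that dissociation of tissue can induce, summed to 136 and 130 UPM.

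The relation to Scx was graded in a wider set of cells, which also held cells that met no gate. What the mix of cell kinds in each group adds to it was not tested. In cells of no muscle or distant class, each thinned to 5000 UMIs, Dusp6 stood at 34.4 UPM with 0 Scx UMIs (3822 cells), 64.3 with 1 (946 cells), 110 with 2 or 3 (726 cells) and 183 UPM with 4 or more (342 cells). Etv4 went through 9.47, 24.3, 43.5 and 69.0 UPM and Spry1 through 23.7, 38.3, 57.6 and 97.7 UPM. No neighbouring intervals of these 3 genes overlap. Spry4 went from 3.66 to 22.8 UPM and Etv5 from 9.21 to 32.2 UPM, while Spry2 went from 52.2 to 86.0 UPM with overlapping intervals in the first 2 and in the last 2 groups. Fgfr1 stayed between 99.8 and 114 UPM, and Fgfr2 went from 30.4 to 8.19 UPM. Pecam1, an endothelial marker, was at most 0.846 UPM in any of these groups. Endothelium, gated in part by Pecam1, had been left out of them, so this low level follows in part from that choice. Fos and Egr1 went from 8.95 to 3.51 UPM and from 4.76 to 4.68 UPM.

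**Figure D5:**
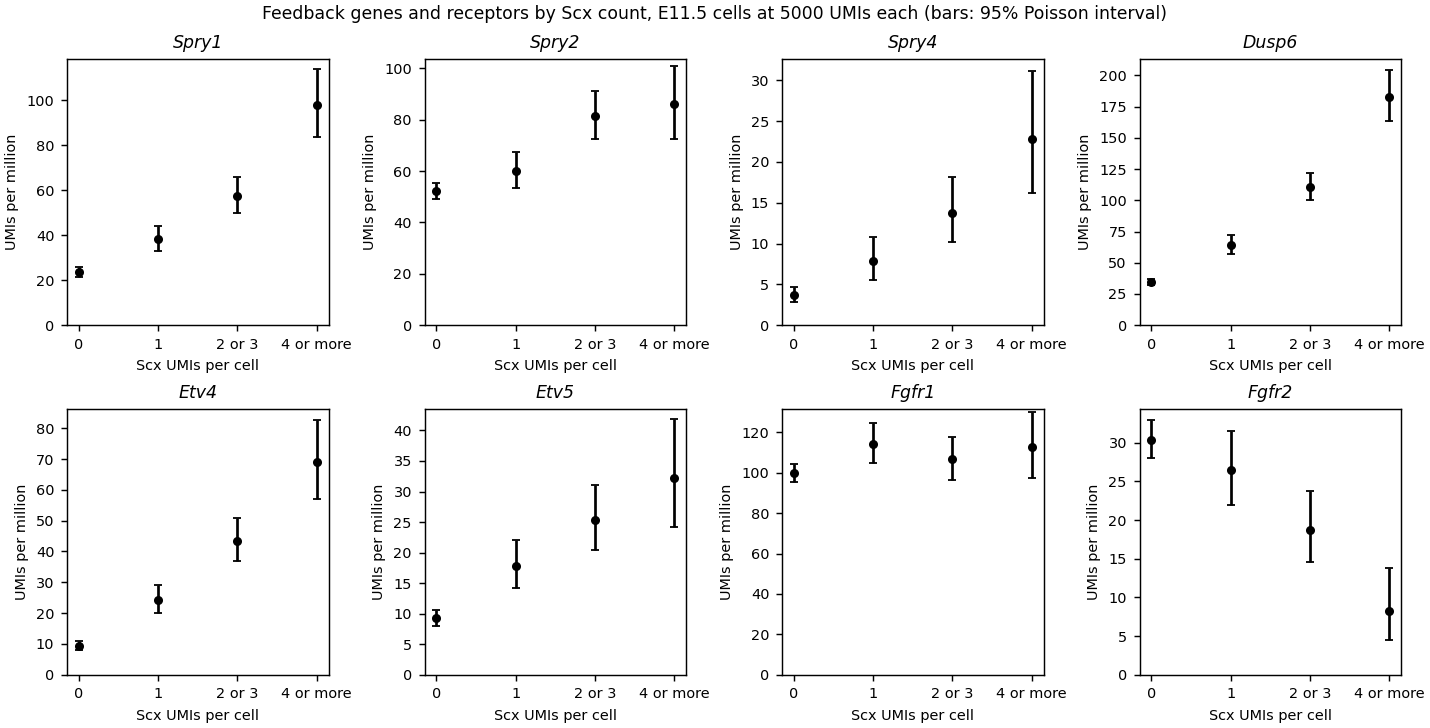
Levels of the 6 feedback genes and of Fgfr1 and Fgfr2 (vertical axes, UMIs per 1000000 from 0) in E11.5 cells grouped by the number of Scx UMIs (horizontal axes), each cell thinned to 5000 UMIs and cells of muscle and distant classes left out. Cells that met no gate are included. Points are group levels and bars 95% Poisson intervals. Dusp6 goes from 34.4 to 183 UPM and Etv4 from 9.47 to 69.0 UPM, while Fgfr1 stays between 99.8 and 114 UPM.

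The third comparison set newly formed somite cells over Pax3/Pax7 cells at E9.5. This gate uses markers of the dermomyotome, the epithelium that somites keep on their outer side, but it was mixed. Of its 733 cells, 171 lay outside muscle clusters, and 99 and 82 fell in muscle clusters led by Lbx1 and Grem1. Of 12 measured genes 4 were higher, where 2.41% of 10298 genes were, and none was lower, where 4.34% were. These were Fgf18 (log2 ratio 2.57, 2.32 to 2.81), Fgfr2 (1.34, 0.85 to 1.82), Fgfr1 (1.33, 1.11 to 1.54) and Fgf9 (1.40 on 9 against 24 UMIs). With only the 562 Pax3/Pax7 cells of muscle clusters as reference, Fgf18, Fgfr1 and Fgfr2 stayed higher, where 2.31% of 9912 genes were. Fgf9, on 9 against 17 UMIs, was then under 30 UMIs. Ligand and receptors were thus both higher in the youngest somite cells, while the 5 measured feedback genes, from Dusp6 at 0.71 to Spry1 at -0.14, lay within 2-fold. The intervals of Dusp6 (0.43 to 0.97) and Spry2 (0.21 to 1.00) exclude no difference. With classes from clusters, Dusp6 and Spry4 also passed 2-fold higher and Fgf8 passed it lower. The muscle cluster led by Ripply2 and Pcdh8 gave 194 UPM of Fgf18 and 170 UPM of Fgfr1. Fgf8 was at 77.8, 56.7 and 52.6 UPM in its 3 highest E9.5 muscle clusters, the last of them led by Myog, and all 3 intervals overlap.

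The last 3 comparisons set E11.5 over E9.5 within a class, and as 1 library stands for each stage, stage and library cannot be told apart. In Pax3/Pax7 cells 15 genes were measured, 6 were higher, where 13.2% of 10701 genes were, and 2 were lower, where 5.93% were. Under median-of-ratios scaling the background was 11% and 8.10%. Higher at E11.5 were Fgf5 (log2 ratio 4.24, 3.46 to 5.12), Spry4 (3.24), Fgf9 (3.09, 2.37 to 3.85), Fgf10 (2.41), Etv4 (1.90) and Spry2 (1.57). Lower were Fgf18 (-3.15, -4.29 to -2.20) and Fgf8 (-2.58, -3.55 to -1.75). Restricted to cells of muscle clusters, 13 genes were measured, with a background of 11.5% higher and 8.5% lower. Of these 3 were higher, Fgf5 (5.65), Fgf9 (5.05) and Spry2 (1.50), and 4 were lower, Fgf8 (-2.22), Fgf18 (-2.26), Fgfr2 (-3.03, on 1 UMI at E11.5) and Dusp6 (-1.91). Etv4 was then within 2-fold at 0.54, and Fgf10 (17 against 6 UMIs) and Spry4 (4 against 16) were under 30 UMIs. The genes past 2-fold under both choices were thus Fgf5, Fgf9 and Spry2 at E11.5 and Fgf8 and Fgf18 at E9.5.

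Sclerotome had 14 measured genes, of which 8 were higher at E11.5, where 16.4% of 11579 genes were, and 2 were lower, where 4.34% were. Higher were Etv4 (log2 ratio 2.01, 1.50 to 2.52), Spry4 (1.73), Spry2 (1.36), Fgfr2 (1.32, 1.06 to 1.58), Fgfr3 (1.18 on 18 UMIs at each stage), Etv5 (1.15), Spry1 (1.05) and Fgfr1 (1.01, 0.87 to 1.14). Lower were Fgf8 (-3.03) and Fgf18 (-2.77, -3.39 to -2.20), the same pair as in Pax3/Pax7 cells. Dusp6 stood at 0.11 (-0.08 to 0.30). Scaling moved this comparison by 0.23 (log2): median-of-ratios scaling left 4 genes higher, with backgrounds of 12.6% and 6.83%. With classes from clusters, Fgf5, Spry1, Spry2, Spry4 and Etv4 were higher and no receptor was, where 21.2% of 11894 genes were. With 1 more marker per gate, Fgfr1, Fgfr2, Fgfrl1, Spry2, Etv4 and Etv5 were higher, where 14.0% of 10871 genes were. That gate held 284 of 648 E11.5 and 884 of 1387 E9.5 sclerotome cells. What the make-up of the class adds to the ratios was not tested.

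In neural tube progenitors 17 genes were measured, 4 of them higher at E11.5, where 14.4% of 11493 genes were, and 5 lower, where 7.47% were. Median-of-ratios scaling gave backgrounds of 10.5% and 9.92%. Higher were Fgfr3 (log2 ratio 2.45, 2.21 to 2.69), Dusp6 (1.30, 0.71 to 1.85), Spry1 (1.19) and Spry2 (1.19). The 5 lower genes rested on 0 or 1 UMI in the 183 E11.5 cells. Fgf3 had 1 against 110 UMIs (log2 ratio -2.83, -8.14 to -0.32). Fgf14 and Fgf18 had 1 UMI each, with intervals that include no difference. Fgf8 and Fgf9 had 0, which sets no bound on the lower side, since 3 UMIs in these cells would already lie above their E9.5 levels of 1.24 and 1.28 UPM. Fgf15, the ligand of this tissue, lay within 2-fold at 0.43 (0.08 to 0.76), as did Fgfr1 at -0.21 and Fgfr2 at 0.14. The make-up of this class differed by stage. Dorsal and ventral cells were 564 and 815 of 1991 at E9.5, and 64 and 24 of 183 at E11.5. Fgf15 and Fgfr3 differed between dorsal and ventral cells, and what this make-up adds to the ratios was not tested.

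A wider list of 51 genes that handle FGF signals was read in the same comparisons: heparan sulfate proteoglycans and their enzymes, relay proteins and further feedback genes. Sarcomere-building myocytes over Pax3/Pax7 cells had 45 measured, 7 higher and 14 lower, beside 11.6% and 16.8% of all genes. The reference was the whole Pax3/Pax7 gate, of which 153 of 204 cells lay outside muscle clusters. The largest were Fos at a log2 ratio of 3.06, Gpc4, a cell surface glypican, at 2.58 and Egr1 at 2.47, and on the lower side Il17rd, a membrane inhibitor of FGF receptors, at -2.93, Sdc1, a syndecan, at -2.38 and Sulf2, a heparan sulfate sulfatase, at -1.90. Fos and Egr1 are also genes that dissociation of tissue can induce, and the source of their difference was not tested. In tendon progenitors over sclerotome 3 of 47 were higher and 4 lower, beside 2.71% and 3.68% of all genes, among them Myc at 1.66, Spred3, a Sprouty-related inhibitor, at 1.36, Sulf1 at -2.24, Sdc2 at -1.47 and Flrt2 at -1.22. Summed with Ier2, Fos and Egr1 stood at 109 and 90.7 UPM in the first pair of classes. That sum differs less than Fos and Egr1 do alone. Newly formed somite cells had 3 of 42 higher and 4 lower, beside 2.41% and 4.34% of all genes, with Sulf1 at 1.21, Flrt2 at -1.27, Dusp5, an ERK phosphatase, at -1.11 and Hs6st2, a heparan sulfate sulfotransferase, at -1.10.

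Between stages, Pax3/Pax7 cells had 6 of 44 genes of this list higher at E11.5 and 4 lower, where 13.2% and 5.93% of all genes were. The Pax3/Pax7 values of this list were not restricted to cells of muscle clusters. Sclerotome had 14 of 47 higher and 4 lower, beside 16.4% and 4.34%, and neural tube progenitors 9 of 44 and 4, beside 14.4% and 7.47%. The share of 6 in 44 in Pax3/Pax7 cells is near that of all genes. Genes that moved alike were set side by side after their values were seen. Il17rd was higher in all 3 classes, at log2 ratios of 1.67, 2.19 and 1.18, and Sdc2 at 1.34, 1.69 and 1.26. Dusp5 was lower in all 3 at -5.46, -2.86 and -2.77, and so was Myc at -1.46, -2.37 and -2.12. Fgfbp3, a carrier of secreted FGFs, was higher in neural tube progenitors at 2.74, on 1974 against 4586 UMIs, and Dusp4 was higher in sclerotome at 2.50.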

How the data were processed

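UMI counts per gene and cell were used as deposited by the authors: raw, whole-number counts of 10x Genomics Chromium libraries, made with Cell Ranger 3.0.1 against mm10 per the submitters' processing notes. Cells with 200 or more and fewer than 6500 genes and under 15% mitochondrial UMIs were kept. The study states the same limits. The E9.5 library held 149368952 UMIs and the E11.5 library 136655763. The 32 members, the wider list of 51 genes (a further symbol, Anos1, was not found), the marker lists and the comparisons were chosen with earlier results of these data known.

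Cells were gated by marker genes. A level is the sum of UMIs of a gene over the cells of a class per 1000000 UMIs of the class, with an exact Poisson interval. Ratios of 2 levels have the exact interval of a ratio of Poisson counts, and shares of cells Clopper-Pearson intervals. Intervals and the limit of 3 counts for a count of 0 cover counting error only. All genes were computed and the members read from that table. Members are given with values from 30 UMIs in a comparison or where among the 3 highest ligands, 2 highest receptors or 3 highest feedback genes of a class. Other list genes are given from 100 UMIs where among the 3 largest changes each way. A few further members and values within classes were added after they were seen. Likely doublets were marked by Scrublet (scanpy 1.11.5) and left out only in an alternative. Alternatives also took classes from clusters of 2000 variable genes without the members, 1 more marker per gate, thinning, other scalings and other minimum counts. Calculations were tested on simulated data. Python 3.11.15, numpy 2.4.6, scipy 1.17.1, pandas 2.3.3 and matplotlib 3.10.9 were used. Neither embryos nor replicate numbers are recorded per cell, so no test between stages was made.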

Additional observations from a re-analysis of the deposited data

How the results depend on the processing

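No paired analysis was possible because each stage has 1 library and the results come from no test. Counts of members past 2-fold moved by over 1.5 times as follows, and unless stated the cause was not tested. Counting genes from 1 UMI, which adds genes by construction, gave 8 lower (myocytes over Pax3/Pax7 cells), 12 higher and 5 lower (tendon over sclerotome), 9 and 7 (newly formed somite), 13 and 5 (Pax3/Pax7 cells by stage), 14 and 6 (sclerotome by stage) and 7 and 10 (neural tube by stage). Counting from 100 UMIs, which removes genes, left 2 lower for myocytes, 1 lower for tendon, 2 higher for Pax3/Pax7 cells by stage and 1 lower for neural tube. Thinning to 5000 UMIs, which leaves fewer UMIs, gave 4 higher and 2 lower for myocytes, 1 lower for tendon, 2 higher for newly formed somite, 5 higher for sclerotome and 1 lower for neural tube. Classes from clusters gave 1 lower for newly formed somite, 5 higher for sclerotome and 3 lower for neural tube. Another marker per gate gave 2 higher, and removal of Scrublet calls 3 lower, for neural tube. Median-of-ratios scaling gave 4 higher for sclerotome. Of the alternatives added after seeing the data, Pax3/Pax7 cells of muscle clusters only gave 3 higher and 4 lower by stage and turned Dusp6 to a log2 ratio of 0.31 in myocytes, and Myf5 cells with Myod1 myoblasts as reference gave 8 lower for myocytes. The other 88 counts stayed within 1.5 times. Of 624 values of single genes, 540 stayed within their interval, 83 moved and 1 reversed. Clusters gave no progenitor class at E11.5, so that alternative was not run for myocytes and for Pax3/Pax7 cells by stage. Over 20 ligand and stage pairs, the leading class changed in at least 1 alternative for Fgf3, Fgf8, Fgf13 and Fgf14 at E9.5 and for Fgf5, Fgf8 and Fgf10 at E11.5: Fgf8 at E9.5 was highest in epithelium with clusters or stricter gates. Fgf10 at E11.5 was highest in sarcomere-building myocytes with classes from clusters, where no E11.5 cluster was named for Myf5 cells. Depth limits the genes under 30 UMIs and the classes of under 100 cells.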
